A study of Mus musculus with 12 samples.

Results

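The 10 genes described here encode 4 ligands of the VEGF family (Vegfa, Vegfb, Vegfc and Pgf), the VEGF receptors Flt1 and Kdr with their co-receptor Nrp1, the angiopoietins Angpt1 and Angpt2, and Tek, the receptor that both angiopoietins bind. They were chosen by symbol as members of these 2 signalling systems of blood vessels, and all 10 were found among the 17471 genes listed for each library. All 10 were also among the 13678 genes kept after removal of genes with low counts. Levels were measured by RNA sequencing of mouse left ventricle in 12 libraries that form 4 groups of 3. Every mouse was floxed for Yap, a transcriptional co-activator of the Hippo pathway, and every mouse ate a tamoxifen citrate diet from surgery on. Cre-positive mice had 1 copy of the tamoxifen-activated recombinase MerCreMer at the endogenous Postn locus, where the periostin promoter drives it in activated fibroblasts. Cre-negative siblings were wildtype at Postn. Within each genotype, mice aged 6 to 10 weeks had either the left anterior descending coronary artery tied off for good, which causes a myocardial infarction (MI), or sham surgery, and the ventricle was taken on day 4. The deletion was therefore aimed at 1 cell type, while the RNA came from the whole ventricle. The labels give only a number to each replicate, so p-values here measure the spread between these samples.

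VEGF-A is secreted by muscle and other cells under low oxygen and signals mainly through the receptor tyrosine kinase Kdr on endothelial cells, which drives sprouting, survival and permeability of vessels. Flt1 binds VEGF-A, VEGF-B and placental growth factor (Pgf) tightly but signals weakly, so it is known mainly as a decoy for VEGF-A, and VEGF-C acts on lymphatic vessels. Angiopoietin-1, made by cells around the vessel, activates Tek and keeps vessels quiet, whereas angiopoietin-2 is released by activated endothelium and can oppose it.

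Promoter windows are shown for Vegfa and Vegfb, the ligands whose mRNA was lower after MI in both genotypes. The sequences are from RefSeq (GRCm38.p6, the assembly also called mm10) and hold the 250 bases before the start site. They run 5′ to 3′ on the minus strand, at chr17:46032378-46032627 for the outermost Vegfa start site and at chr19:6987652-6987901 for Vegfb. Capitals mark a hypoxia response element core, the letters ACGTG or GCGTG on either strand.
Vegfa: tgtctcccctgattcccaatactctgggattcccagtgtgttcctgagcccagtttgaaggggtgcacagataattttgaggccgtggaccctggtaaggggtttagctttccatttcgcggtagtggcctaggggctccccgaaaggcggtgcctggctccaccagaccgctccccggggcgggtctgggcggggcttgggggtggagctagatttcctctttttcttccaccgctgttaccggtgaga
Vegfb: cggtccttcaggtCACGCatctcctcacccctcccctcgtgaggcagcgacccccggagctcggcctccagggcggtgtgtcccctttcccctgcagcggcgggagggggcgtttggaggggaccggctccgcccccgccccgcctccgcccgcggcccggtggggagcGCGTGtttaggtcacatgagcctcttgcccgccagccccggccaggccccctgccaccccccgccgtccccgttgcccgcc
The Vegfb window held 2 such cores, and the Vegfa window held 0. Sequence farther than 250 bases from the start site was not searched, so a count of 0 covers this window only. A second Vegfa start site, inside the gene, had a window with 2. The bases just after either Vegfa start site were found in no GENCODE transcript of the gene. Among the 10 windows that RefSeq lists for 8 of the 10 genes, 6 held at least 1 core, against 38.6% of the 32851 windows of all genes. Only 3 of the 10 windows lay outside their gene. GC content was 76.4% in the Vegfb window and 59.2% in the Vegfa window, against a median of 52.4% over all windows. Of the 10 windows, only that of Tek, at 51.2%, lay below this median. Both core sequences contain CG, and the windows compared were not matched for GC content, so the count of 6 is not read as enrichment. The letters GGAATG, a motif of the TEAD factors that YAP binds, were in 0 of the 10 windows on either strand and in 12.6% of all windows.

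Total expected counts per library were 10257675 to 15176286. Yap1, the floxed gene, passed no test between genotypes (adjusted p = 0.971 after MI and 0.843 after sham). Levels are given as CPM, reads scaled to library size. After MI that of Yap1 was 92.6 ± 1.40 CPM with Cre (SD, n = 3) and 91.7 ± 6.24 without, and after sham 109.9 ± 10.2 with Cre and 115 ± 1.13 without. Postn, the locus that holds Cre, had 635 ± 36.0 CPM in Cre-positive against 1616 ± 103 in Cre-negative hearts after MI, and 8.47 ± 4.13 against 86.8 ± 24.2 after sham. After sham its difference passed the test (log2 difference -3.36, adjusted p = 0.00228), and after MI it did not (-1.35, adjusted p = 0.202). These calls depended on the fit. With only the 2 sham groups the first value was -3.37 (adjusted p = 0.201). The difference after MI passed with only the 2 MI groups (-1.34, adjusted p = 0.00261), with DESeq2 (-1.35, adjusted p = 0.000968) and without Cre-positive sham replicate 2 (-1.33, adjusted p = 0.0136). That library stood apart. Its Myh7, the slow myosin heavy chain, was at 34061 CPM against 377 to 2938 in the other 5 sham libraries, and its Myh6, the fast form, at 14335 against 39835 to 53144. It lay outside the range of those 5 libraries for 59.9% of all genes tested, a share of 19.2 to 44.1% when each of the others was set against the rest. Of the 10 genes, 6 were outside: Vegfa, Pgf and Flt1 lay above and Vegfb, Nrp1 and Tek below. Without Cre, reads of Y-linked genes were found in 3 of the 3 libraries after MI and 2 of the 3 after sham, and with Cre in 1 and 0, so sex was not balanced over the groups.

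Levels per transcript length were compared with the deposited FPKM, which divides reads by length and library size. Vegfb was the most abundant of the 10 mRNAs in every group. Its FPKM was 412 ± 22 in Cre-negative sham and 246 ± 29.1 in Cre-negative MI (SD, n = 3), 430 ± 83.2 in Cre-positive sham and 272 ± 11.2 in Cre-positive MI. Vegfa came next at 74.4 ± 11.5, 60.8 ± 13.6, 79.3 ± 7.77 and 65.2 ± 8.78 FPKM in the same order of groups. Neither ligand's range touched that of its neighbour in this order in any group. The receptors followed at 14.3 to 35.5 FPKM as group means for Nrp1, Kdr and Flt1. Nrp1 ranked above Kdr in 3 of the 4 groups, and in Cre-positive sham it ranked below Flt1. The FPKM of Kdr and Flt1 overlapped in both sham groups. Tek, at group means of 11.2 to 13.5 FPKM, and Angpt1, at 8.30 to 15.4 FPKM, were close to each other, and their ranges overlapped in every group except Cre-negative MI. Pgf and Vegfc had group means of 3.50 to 8.73 FPKM, and their ranges overlapped in both sham groups. Angpt2 was last in all 4 groups, at 0.967 ± 0.609 FPKM in Cre-negative sham and 3.30 ± 1.02 in Cre-negative MI. In Cre-positive hearts its FPKM was 0.773 ± 0.133 after sham and 2.28 ± 0.200 after MI.

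**Figure D1:**
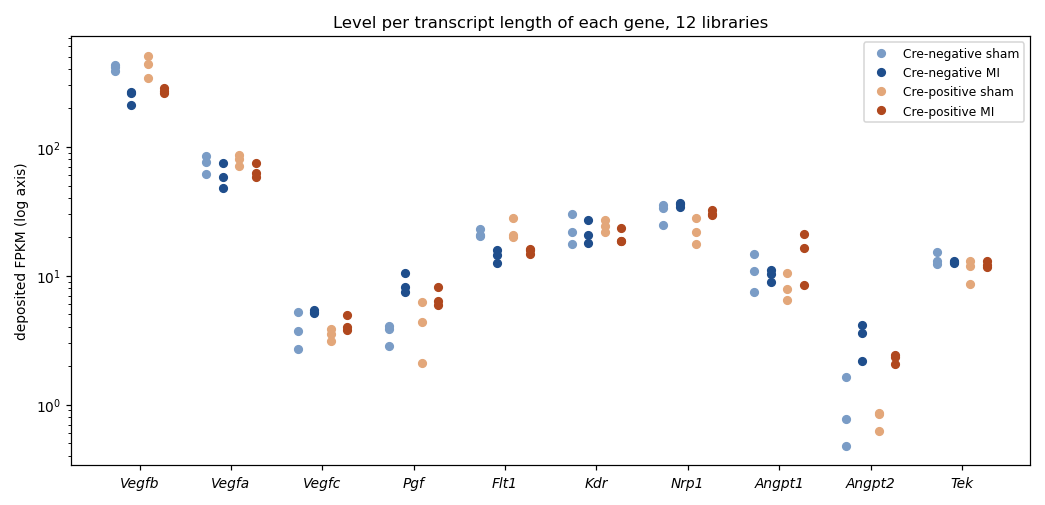
Deposited FPKM of each of the 10 genes on a log axis, with 1 point per library and colour for the group. Vegfb lies above all other genes in each library (212 to 508 FPKM) and Angpt2 below all of them in each group.

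The first question was how the 10 genes responded to infarction in hearts without Cre. Of the 10, 2 rose (Pgf and Angpt2), 3 fell (Vegfa, Vegfb and Flt1) and 5 did not pass the test at an adjusted p under 0.05. Over all genes tested, 54.3% passed it, 29.9% higher and 24.4% lower after MI. The 5 of 10 called here are close to the share among all genes. The median log2 fold change of all 10 was -0.32, against 0.02 for all genes. In Cre-positive hearts 1 of the 10 rose (Angpt2) and 4 fell (Vegfa, Vegfb, Flt1 and Kdr), where 45.2% of all genes passed, 25.7% higher and 19.5% lower. The median of the 10 was -0.02 there and that of all genes 0.02. The CPM of sham and MI libraries did not overlap for 6 of the 10 genes in Cre-negative hearts and for 5 in Cre-positive hearts, against 67.8% and 51.1% of all genes. The authors' deposited table calls 6 of the 10 in Cre-negative hearts, Tek being the additional gene, and the same 5 in Cre-positive hearts. The share of all genes called there is not given here.

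These counts rest on TMM scaling, which sets aside the large shift in RNA composition after MI. With library totals alone, the median of all genes moved up by 0.25 in Cre-negative and 0.23 in Cre-positive hearts, on the log2 scale. Of the genes called, 55.1% were higher after MI with TMM and 75.4% with totals in Cre-negative hearts, and 56.9% and 81.3% in Cre-positive hearts. Under totals the calls of Vegfb, Flt1 and Angpt2 kept their direction in both genotypes and Vegfa passed in neither, while the median of the 10 genes became -0.08 and 0.20. Changes below are relative to the TMM centre.

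**Figure D2:**
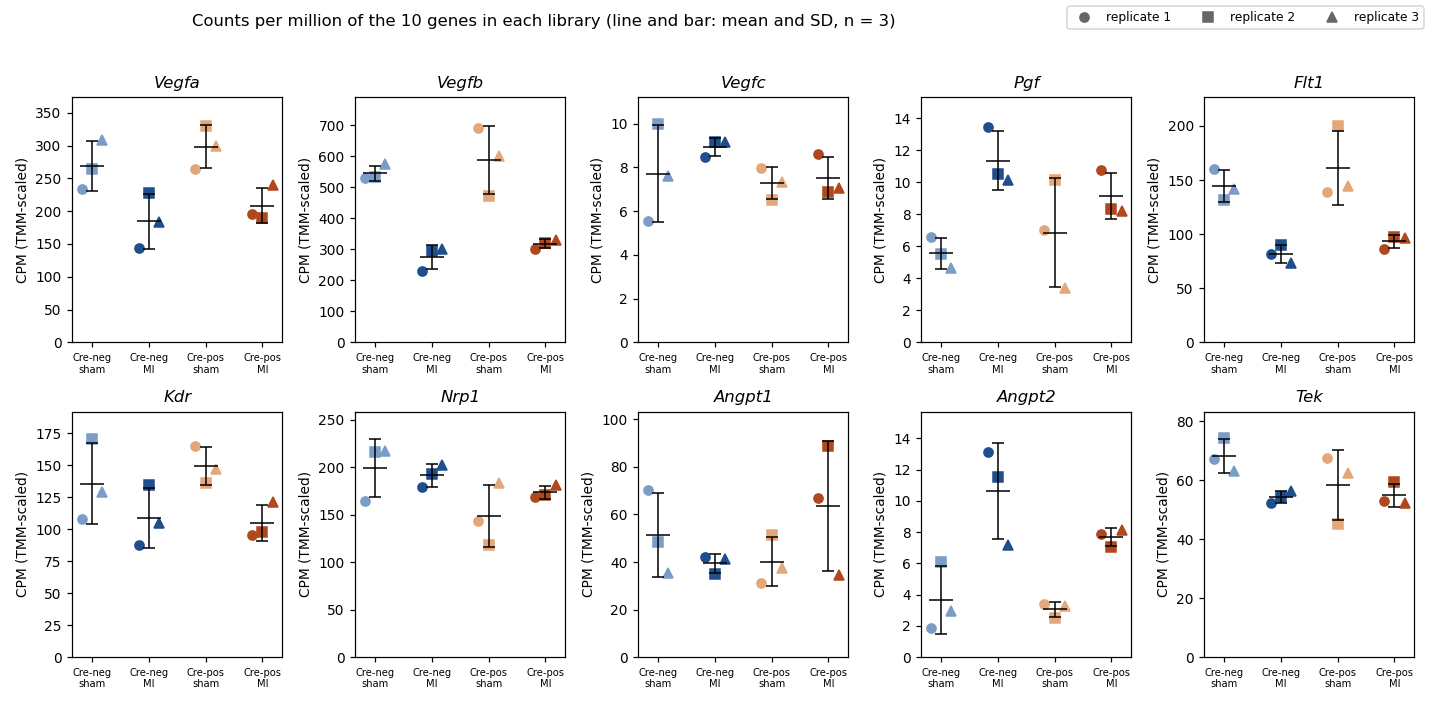
CPM (TMM-scaled) of each gene in the 12 libraries, with symbols for the replicate number and the mean and SD of each group of 3. Vegfa, Vegfb and Flt1 lie lower and Angpt2 higher in every MI library than in every sham library of the same genotype.

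Among the ligands, Vegfb (chromosome 19, 6982472 to 6987651 of mm10), which binds Flt1 and is known for a role in coronary vessels, had the smallest adjusted p-value of the 10 in both genotypes. Its CPM was 529, 532 and 573 in Cre-negative sham and 231, 295 and 299.6 in Cre-negative MI. In Cre-positive hearts it was 690, 473 and 599.7 CPM after sham and 302, 321 and 331 after MI. No MI library reached the level of any sham library. The log2 fold change was -0.98 ± 0.14 (SE; 0.505-fold, adjusted p = 9.31e-05) in Cre-negative and -0.88 ± 0.14 (0.542-fold, adjusted p = 0.00031) in Cre-positive hearts.

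Vegfa (chromosome 17, 46016993 to 46032377), the main endothelial growth factor of the family, was lower by a smaller step. Cre-negative sham libraries held 233, 265 and 309 CPM and Cre-negative MI libraries 144, 228 and 183. Cre-positive sham libraries held 265, 330 and 300.1 CPM and Cre-positive MI libraries 196, 189 and 239. Within each genotype the groups did not overlap, though Cre-negative MI replicate 2 lay just below the lowest Cre-negative sham library. The log2 fold change was -0.54 ± 0.17 (0.687-fold, adjusted p = 0.0167) in Cre-negative and -0.52 ± 0.17 (0.698-fold, adjusted p = 0.0243) in Cre-positive hearts. With library totals alone it was -0.30 (adjusted p = 0.151) and -0.29 (adjusted p = 0.182). The files give Vegfa as 1 gene over 10 transcripts, so the splice forms that differ in heparin binding were not separated.

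Pgf (chromosome 12, 85166637 to 85177785), the placental growth factor that binds Flt1 but not Kdr, rose in Cre-negative hearts. Its CPM was 6.59, 5.49 and 4.63 after sham and 13.5, 10.5 and 10.1 after MI, with no overlap. The log2 fold change was 1.03 ± 0.30 (2.04-fold, adjusted p = 0.0118). In Cre-positive hearts sham libraries spread from 3.40 to 10.2 CPM and MI libraries from 8.23 to 10.8, and the groups overlapped through Cre-positive sham replicate 2, the highest sham library. The fold change was 0.40 ± 0.29 (adjusted p = 0.288), and without that library 0.74 ± 0.28 (adjusted p = 0.0413). The difference between the 2 injury responses was -0.63 ± 0.42 and did not pass the test (adjusted p = 0.712). Vegfc, the lymphatic growth factor, had 5.55 to 9.98 CPM over all 12 libraries and passed in neither genotype (0.21 ± 0.19 and 0.04 ± 0.19, adjusted p = 0.370 and 0.871).

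Flt1 (chromosome 5, 147561604 to 147726438), the high-affinity receptor, fell in both genotypes. It had 160.5, 131 and 142 CPM in Cre-negative sham and 81.5, 89.8 and 73.7 in Cre-negative MI. In Cre-positive hearts it had 139, 200.03 and 145 CPM after sham and 86.6, 97.5 and 96.6 after MI. All 6 MI libraries, at most 97.5 CPM, were below all 6 sham libraries, at least 131 CPM. The log2 fold change was -0.82 ± 0.14 (0.565-fold, adjusted p = 0.000383) in Cre-negative and -0.78 ± 0.14 (0.581-fold, adjusted p = 0.000752) in Cre-positive hearts. The files list 1 Flt1 transcript, so the soluble form was not separated from the membrane receptor.

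Kdr (chromosome 5, 75932827 to 75979072), the main signalling receptor for VEGF-A, had 108, 170.3 and 129 CPM in Cre-negative sham and 87.9, 134 and 105 in Cre-negative MI, with overlap. In Cre-positive hearts it had 165, 136 and 147 CPM after sham and 95.2, 98.0 and 121 after MI, without overlap. The log2 fold change was -0.31 ± 0.18 (adjusted p = 0.168) in Cre-negative and -0.51 ± 0.18 (0.702-fold, adjusted p = 0.0392) in Cre-positive hearts. The difference between these responses was -0.20 ± 0.26 (adjusted p = 0.861). Kdr's call in Cre-positive hearts was lost without Cre-positive MI replicate 1 or 2 (adjusted p = 0.123 and 0.110) and with a covariate for reads of Y-linked genes (-0.39, adjusted p = 0.0933). It was also lost without Cre-positive sham replicate 1 or 3 (adjusted p = 0.101 and 0.0593) or Cre-negative MI replicate 3 (adjusted p = 0.0518). Nrp1, which binds both VEGF and class 3 semaphorins, had 118 to 217 CPM over all libraries and overlapped in both genotypes (-0.06 ± 0.15 and 0.23 ± 0.15, adjusted p = 0.769 and 0.238).

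Of the angiopoietin side, Angpt2, the ligand known as a product of activated endothelium, had the largest rise of the 10 genes in both genotypes. It had 1.88, 6.09 and 2.96 CPM in Cre-negative sham and 13.1, 11.6 and 7.20 in Cre-negative MI. In Cre-positive hearts it had 3.38, 2.47 and 3.30 CPM after sham and 7.86, 7.07 and 8.16 after MI. Every MI library was above every sham library, and Cre-negative sham replicate 2 came closest to the MI range. The log2 fold change was 1.55 ± 0.34 (2.93-fold, adjusted p = 0.00212) in Cre-negative and 1.33 ± 0.35 (2.52-fold, adjusted p = 0.00797) in Cre-positive hearts. Its counts were low, from 20.01 to 226 reads per library. Angpt2 (chromosome 8, 18690263 to 18741562 of mm10) lies on the minus strand inside Mcph1, a gene of the plus strand, and the strand setting of the libraries is not given in the sources used here. All 12 Angpt2 counts were estimates that are not whole numbers, and so were all 12 of Vegfa. Mcph1 changed by -0.40 ± 0.14 (adjusted p = 0.0331) in Cre-negative hearts and by -0.08 ± 0.15 (adjusted p = 0.688) in Cre-positive hearts. Whether Mcph1 reads enter the Angpt2 counts was not tested.

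Angpt1, the ligand that activates Tek, varied more within groups. Cre-negative libraries held 70.3, 48.3 and 35.2 CPM after sham and 42.2, 34.9 and 41.4 after MI. Cre-positive libraries held 31.1, 51.4 and 37.7 CPM after sham and 66.9, 89.0 and 34.7 after MI, so that Cre-positive MI replicates 1 and 2 lay above every Cre-positive sham library and replicate 3 did not. The fold change was -0.38 ± 0.32 (adjusted p = 0.335) in Cre-negative and 0.67 ± 0.32 (adjusted p = 0.106) in Cre-positive hearts. Without Cre-positive MI replicate 3 the second value was 0.96 (adjusted p = 0.0161), and without Cre-positive sham replicate 2 it was 0.85 ± 0.33 (adjusted p = 0.04997). Tek, the receptor of both angiopoietins, had 67.2, 74.3 and 63.0 CPM in Cre-negative sham and 52.4, 54.3 and 56.4 in Cre-negative MI. These groups did not overlap, yet the fold change of -0.33 ± 0.13 missed the threshold (adjusted p = 0.0556). It passed with RLE size factors (adjusted p = 0.0476), with DESeq2 (adjusted p = 0.0440), with only the 2 groups compared (adjusted p = 0.00882) and without Cre-positive sham replicate 1 (adjusted p = 0.0252) or 2 (adjusted p = 0.00434). In Cre-positive hearts Tek's fold change was -0.09 ± 0.13 (adjusted p = 0.599), and without sham replicate 2 it was -0.29 ± 0.10 (adjusted p = 0.03003). Leaving out that 1 library raised the count of the 10 genes called in Cre-positive hearts from 5 to 8, the added genes being Pgf, Angpt1 and Tek, and moved the median of the 10 from -0.02 to -0.18. The share of all genes called in that fit is not set beside this count, so the rise is not read as particular to the 10.

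**Figure D3:**
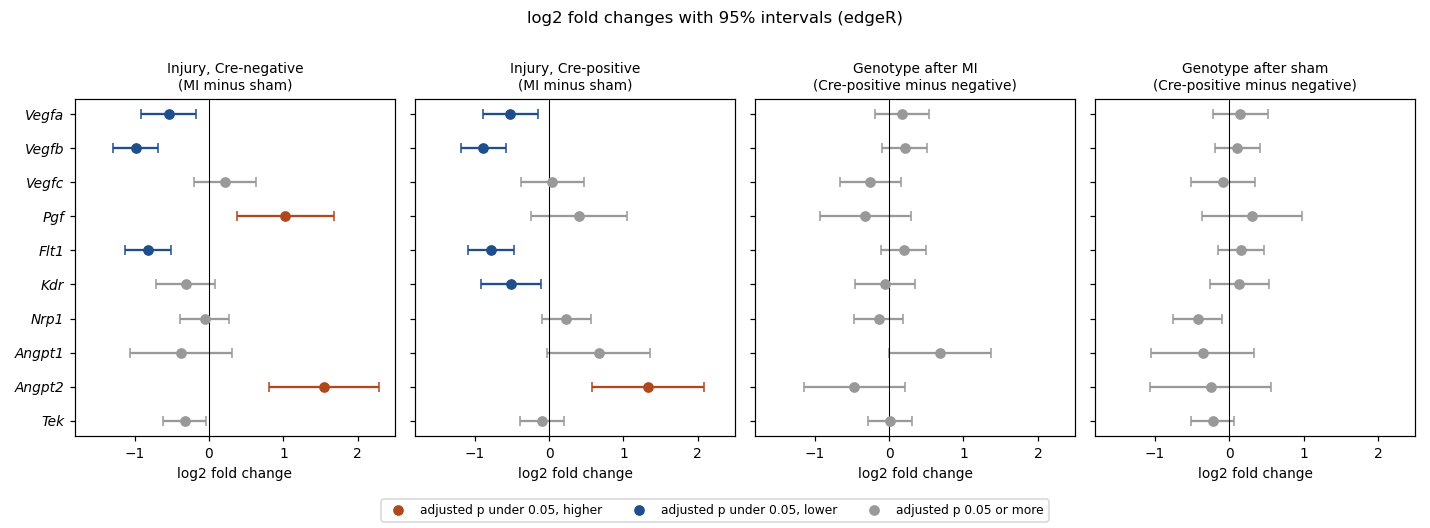
log2 fold change (x axis) of each gene with its 95% interval from edgeR, for injury in each genotype and for genotype after each surgery, coloured where the adjusted p was under 0.05. Coloured points appear in the 2 injury panels only, with 5 genes in each.

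Because 2 genes of a library share its depth, ratios within libraries show the balance between partners without a choice of scaling. The FPKM ratio of Angpt2 to Angpt1 was 0.0328, 0.152 and 0.103 in Cre-negative sham and 0.376, 0.403 and 0.210 in Cre-negative MI, with no overlap. In Cre-positive hearts it was 0.132, 0.0588 and 0.107 after sham and 0.142, 0.0966 and 0.286 after MI, and the groups overlapped. After MI the median ratio was thus 0.376 in Cre-negative hearts and 0.142 in Cre-positive hearts, and the ranges of these 2 groups overlapped. No exact permutation test of 3 libraries against 3 can give a p below 0.1, so these ratios carry no test. Vegfb over Vegfa was 5.08 to 6.25 in Cre-negative sham, against 3.50 to 4.46 in Cre-negative MI, again without overlap. In Cre-positive hearts the same ratio was 3.96 to 7.15 after sham and 3.79 to 4.65 after MI, where Cre-positive sham replicate 2 gave the lowest sham value. Pgf over Vegfb, 2 ligands of Flt1, was 0.00663 to 0.0100 in Cre-negative sham, against 0.0287 to 0.0495 in Cre-negative MI. The Cre-positive values were 0.00477 to 0.0181 after sham and 0.0219 to 0.0310 after MI, so Pgf was a larger part of the pair in all 6 MI libraries than in any sham library.

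The receptors were also set against 20 other endothelial markers, since in whole tissue fewer cells of a type and less RNA per cell cannot be told apart. The summed CPM of these markers was 1549 to 1841 in Cre-negative sham, against 1694 to 1788 in Cre-negative MI. In Cre-positive hearts it was 1493 to 1848 after sham and 1596 to 1813 after MI, and none of the 20 was at 0 in a whole group. Over all genes tested, 29.9% were higher and 24.4% lower in Cre-negative hearts, and 25.7% and 19.5% in Cre-positive hearts. In Cre-negative hearts 4 of the 20 rose and 4 fell (median log2 fold change 0.14), and in Cre-positive hearts 0 rose and 1 fell (median -0.01). With library totals alone, 11 rose and 1 fell in the former (median 0.39) and 4 rose and 0 fell in the latter (median 0.22). All genes had medians of 0.27 and 0.24 in that fit, and 75.4% and 81.3% of those called were higher. The shares over all genes above are from the TMM fit, and those with totals are not set beside these counts. Ushbp1, a binding partner of harmonin, is named as the marker with the smallest p in Cre-negative hearts. With TMM it fell in both (-0.64 ± 0.15 and -0.46 ± 0.15, adjusted p = 0.00286 and 0.0222). It does not stand for the list, where 4 others rose in Cre-negative hearts. Its call in Cre-positive hearts was lost with library totals alone, where 0 of the 20 fell. Flt1 equalled 7.39 to 9.15% of this sum in Cre-negative sham, against 4.35 to 5.21% in Cre-negative MI. The Cre-positive shares were 7.69 to 10.8% after sham and 4.78 to 6.11% after MI, so the groups did not overlap in either genotype. For Kdr the ranges were 5.85 to 9.59% and 4.92 to 7.79% in Cre-negative hearts, which overlap, and 7.35 to 9.86% and 5.25 to 7.29% in Cre-positive hearts, which do not. Tek equalled 3.65 to 4.18% of the sum in Cre-negative sham, against 2.93 to 3.33% in Cre-negative MI. In Cre-positive hearts its share was 2.45 to 4.19% after sham and 2.92 to 3.72% after MI, and the groups overlapped.

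**Figure D4:**
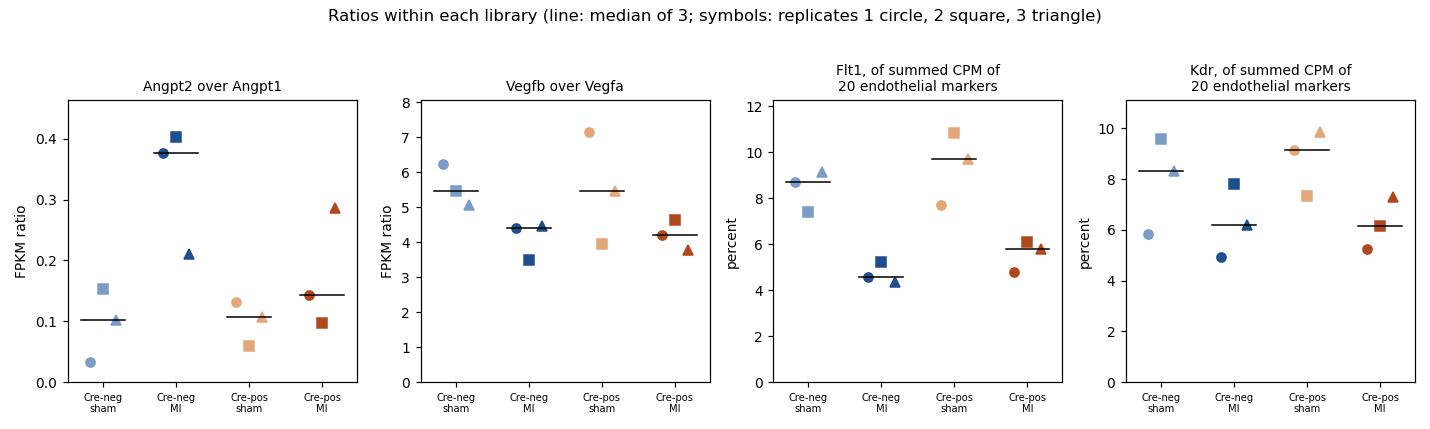
Ratios within each of the 12 libraries, with the median of each group: FPKM ratios of Angpt2 to Angpt1 and of Vegfb to Vegfa, and Flt1 and Kdr as a percent of the summed CPM of 20 endothelial markers. Flt1 is at 4.35 to 6.11% in the 6 MI libraries and at 7.39 to 10.8% in the 6 sham libraries.

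Markers of other cells moved with injury. For comparison, 29.9% of all genes were higher and 24.4% lower in Cre-negative hearts, and 25.7% and 19.5% in Cre-positive hearts. The summed CPM of 10 cardiomyocyte markers was 113260 to 127479 in Cre-negative sham, against 47608 to 65424 in Cre-negative MI, and 76529 to 138671 and 67830 to 80316 in the Cre-positive groups. Of these, 9 fell in Cre-negative and 7 in Cre-positive hearts, and 0 rose. In Cre-positive hearts 4 fell with library totals alone and 9 without sham replicate 2. The shares of all genes lower in those fits are not set beside these counts. Mural cell markers, from the cells that wrap vessels, summed to 1585 to 1672 CPM in Cre-negative sham, against 1156 to 1208 in Cre-negative MI (4 of 10 rose and 4 fell). In Cre-positive hearts they summed to 1337 to 1523 CPM after sham and 1168 to 1332 after MI (3 rose and 2 fell). The median log2 fold change of the mural markers was 0.12 in Cre-negative and 0.19 in Cre-positive hearts, so the lower sums do not describe most of the list. Macrophage markers rose in 10 of 10 cases in both genotypes, with sums of 341 to 392 CPM in Cre-negative sham, against 1938 to 2177 in Cre-negative MI. After MI in Cre-positive hearts the macrophage sum was 1485 to 1633 CPM, against 129 to 402 after sham. Fibroblast markers rose in 8 of 10 cases and fell in 1 in both genotypes. Neutrophil markers rose in 6 of 7 cases in Cre-negative and 3 of 7 in Cre-positive hearts. Of 7 lymphatic markers, 2 rose and 2 fell in Cre-negative hearts, and 1 rose and 2 fell in Cre-positive hearts. All 10 cell cycle genes rose in both. The part of these shifts in the changes of the 10 genes was not tested.

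A list of 32 other genes of the 2 pathways held receptors, ligands and signalling proteins. After MI in Cre-negative hearts 12 of them rose and 7 fell (median log2 fold change 0.13), and in Cre-positive hearts 11 rose and 6 fell (0.12). The split depended on scaling, since with library totals alone 16 rose and 2 fell, and 14 rose and 0 fell. All genes had medians of 0.27 and 0.24 with totals, and their shares called in that fit are not set beside these counts. With TMM the shares over all genes were 29.9% higher and 24.4% lower in Cre-negative hearts and 25.7% and 19.5% in Cre-positive hearts. Vegfd, a further ligand of the lymphatic receptor, had a log2 fold change of 1.89 ± 0.21 in Cre-negative and 1.99 ± 0.21 in Cre-positive hearts (adjusted p = 1.15e-05 and 1.56e-05). Src, a kinase that relays VEGF signals to junctions, changed by 1.65 ± 0.14 and 1.39 ± 0.14 (adjusted p = 1.91e-06 and 1.13e-05). Prkcb, a protein kinase C isoform, changed by 2.02 ± 0.19 and 1.92 ± 0.19. Svep1, an extracellular protein that takes part in lymphatic vessel remodelling, changed by 1.08 ± 0.17 and 0.81 ± 0.17. Going the other way, Grb14, an adaptor of receptor kinases, fell by 0.97 and 0.54 on the log2 scale, and Gab1, a docking protein, fell by 0.69 and 0.52. In Cre-positive hearts both missed the threshold with library totals alone (adjusted p = 0.125 and 0.0809), and Grb14 also with only the 2 groups (adjusted p = 0.0527) and without Cre-positive MI replicate 3 (0.0633) or sham replicate 3 (0.0591). Src and Prkcb are also abundant in leukocytes, whose markers rose in the same libraries, and the part of these cells was not tested.

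Genes known to be induced by VEGF or to mark endothelial tip cells, 19 in all, rose in 13 and fell in 1 case in Cre-negative hearts (median 1.05). In Cre-positive hearts 10 rose and 1 fell (median 0.81). The shares over all genes tested were 29.9% higher and 24.4% lower in Cre-negative hearts, and 25.7% and 19.5% in Cre-positive hearts. Mmp14, a membrane-bound matrix metalloproteinase that fibroblasts and macrophages make as well, changed by 3.75 ± 0.24 and 3.50 ± 0.24. Plvap, the protein of endothelial diaphragms, changed by 2.42 ± 0.20 and 2.28 ± 0.20 (adjusted p = 1.68e-06 and 3.70e-06), from 15.1 to 16.6 CPM in Cre-negative sham to 70.0 to 109 in Cre-negative MI. Nid2, a basement membrane protein, changed by 1.33 ± 0.15 and 1.06 ± 0.15, and Unc5b, a netrin receptor of tip cells, by 1.75 ± 0.19 and 1.21 ± 0.19. F3, tissue factor, fell by 1.18 and 0.89 on the log2 scale. These rises stand beside a lower Vegfa mRNA in the same libraries. Of 14 semaphorins, plexins and partners of neuropilins, 7 rose and 1 fell in Cre-negative hearts (median 0.51) and 6 rose and 1 fell in Cre-positive hearts (0.29). Nrp2, the neuropilin of lymphatic and venous vessels and also a member of the list of 32, changed by 1.07 ± 0.18 and 0.78 ± 0.18, where Nrp1 passed in neither. Sema3f, a ligand of Nrp2, changed by 1.12 ± 0.17 and 0.79 ± 0.17, and Plxna2, a co-receptor, fell by 0.63 and 0.60, the second lost with library totals alone (adjusted p = 0.0556). Gipc1, an adaptor that binds the tail of Nrp1, changed by 0.48 ± 0.12 (adjusted p = 0.00400) in Cre-negative hearts and by 0.16 ± 0.12 (adjusted p = 0.270) in Cre-positive hearts. The second value passed with library totals alone (0.39, adjusted p = 0.0234) and without Cre-positive sham replicate 1 (0.29, adjusted p = 0.0363).

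Hypoxia response genes, among which Vegfa is counted in other settings, did not move as a block. Of 22, 8 rose and 4 fell in Cre-negative hearts (median 0.19) and 6 rose and 3 fell in Cre-positive hearts (median 0.04). Over all genes tested, 29.9% were higher and 24.4% lower in Cre-negative hearts, and 25.7% and 19.5% in Cre-positive hearts. The Cre-positive counts were 4 and 4 without sham replicate 2 (median -0.09), and 9 and 3 with library totals alone (median 0.26). With totals the median of all genes was 0.24 in Cre-positive hearts, and 81.3% of the genes called were higher. The shares of all genes called in those fits are not set beside these counts. Epas1, which encodes the oxygen-sensitive factor HIF-2 alpha, had 612 to 758 CPM in Cre-negative sham, against 323 to 342 in Cre-negative MI. Its log2 fold change was -1.04 ± 0.11 and -0.86 ± 0.11 in the 2 genotypes (adjusted p = 1.05e-05 and 7.22e-05). Egln1, the hydroxylase that marks these factors for degradation, changed by -1.19 ± 0.14 and -0.81 ± 0.14. Pdk1, a mitochondrial kinase, fell by 0.75 and 0.72, and Hk2, a hexokinase, changed by -0.97 ± 0.34 (adjusted p = 0.0270) and -0.62 ± 0.33 (adjusted p = 0.150). The first call of Hk2 was lost with library totals alone (adjusted p = 0.0793) and when MI replicate 1 or sham replicate 3 of that genotype was left out (adjusted p = 0.106 and 0.102). Its second value was -0.99 without Cre-positive sham replicate 2 and passed (adjusted p = 0.00501). On the other side, Pfkfb4, a regulator of glycolysis, changed by 1.18 ± 0.26 and 1.29 ± 0.27. Car9, a carbonic anhydrase, had under 1 CPM in each sham library and 1.06 to 2.997 CPM in the 6 MI libraries (adjusted p = 0.00069 and 0.00463), and its sham values rest on at most 6 reads per library.

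**Figure D5:**
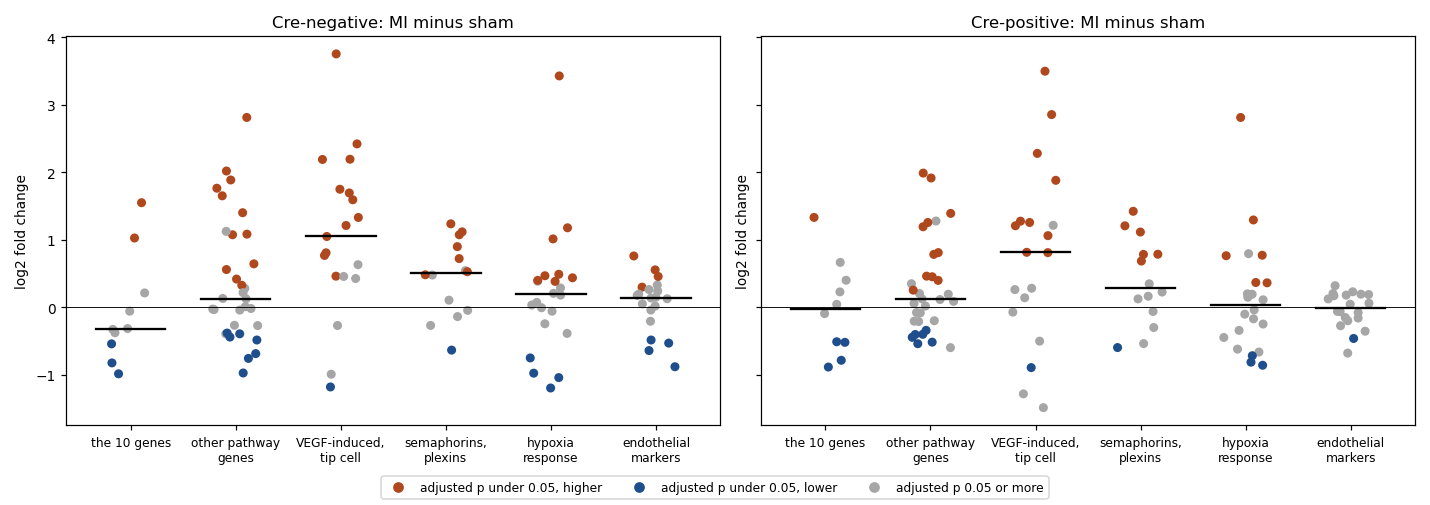
log2 fold change after MI (y axis) of every gene of 6 lists in Cre-negative (left) and Cre-positive (right) hearts, with the median of each list as a line and colour where the adjusted p was under 0.05. The VEGF-induced and tip cell list has medians of 1.05 and 0.81, and the 10 genes have medians of -0.32 and -0.02.

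The second question was whether hearts with Cre differed from hearts without it after the same surgery. After MI, 0 of the 10 genes passed edgeR's test, where 0% of all genes did, and the smallest adjusted p was 0.395. DESeq2 also called 0 of the 10, and it called 167 of all genes. At an unadjusted p under 0.05 there was 1 of the 10, Angpt1, along with 1726 of the 13678 genes tested. The count of 1 in 10 is close to that share. Angpt1's log2 difference was 0.68 ± 0.31 (95% interval 0.00125 to 1.37, unadjusted p = 0.0496). Vegfb was the 1 gene of the 10 whose groups did not overlap, at 302 to 331 CPM in Cre-positive MI and 231 to 299.6 in Cre-negative MI, and 27.2% of all genes were without overlap there. Its difference was 0.21 ± 0.14 (95% interval -0.09 to 0.51, adjusted p = 0.576). For Vegfa the interval was -0.19 to 0.54, for Kdr -0.46 to 0.34 and for Angpt2 -1.14 to 0.21.

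After sham, 0 of the 10 passed, where 0.0512% of all genes did, and the smallest adjusted p was 0.582, in edgeR's test. DESeq2 called 0 of the 10 here as well, and it called 36 of all genes. At an unadjusted p under 0.05 there was 1 of the 10, Nrp1, along with 1123 of the 13678 genes tested, a similar share. Nrp1 had 144, 118 and 183 CPM in Cre-positive sham, against 164, 216 and 217 in Cre-negative sham, and the ranges overlapped. Its log2 difference was -0.43 ± 0.15, and without Cre-positive sham replicate 2 it was -0.26 ± 0.13 (adjusted p = 0.536).

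The third question was whether the response to MI differed between the genotypes, tested as the difference of the 2 responses. Of the 10 genes, 0 passed in edgeR's test, against 0% of all genes, and the smallest adjusted p was 0.598. In DESeq2 0 of the 10 passed, and 33 of all genes did. At an unadjusted p under 0.05 there was 1 of the 10, Angpt1, along with 1116 of the 13678 genes tested, a similar share. Angpt1's difference was 1.04 ± 0.45 (95% interval 0.07 to 2.01, unadjusted p = 0.0378), from -0.38 in Cre-negative and 0.67 in Cre-positive hearts. The differences of Vegfa, Vegfb and Flt1 were 0.02 ± 0.24, 0.10 ± 0.20 and 0.04 ± 0.20, with 95% intervals of -0.49 to 0.54, -0.33 to 0.53 and -0.39 to 0.47. Among the 4 lists of related genes and the endothelial markers, 0 members passed in this test.

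For each gene, the 3 others whose log2 CPM followed it most closely over the 12 libraries were found by the root mean square difference after centring each gene on its own mean. Genes with a predicted-gene name, Gm plus digits or ending in Rik, were left out of this search. For Vegfb, which itself varied by 0.49 about its mean, these were Zfp775, Rhot2 and Dnaja3 at differences of 0.07 each. Tsc1, Dym and Iscu came nearest to Flt1 (0.09 each) and Vps9d1, H2afv and Cpsf3 to Tek (0.08 each). Around Vegfa the nearest were Fam120b, Dcaf1 and Kbtbd12 (0.11 to 0.13), and around Kdr Spryd4, Mrps2 and Yif1a (0.13 to 0.15). Nrp1 lay nearest to Tpmt, Gnpda2 and Fancl (0.10 to 0.12). The distances were wider for the low or variable genes, with Jdp2, Inf2 and Map7d2 for Pgf (0.18 to 0.19) and Ifi47, Cd33 and Klhl6 for Angpt2 (0.22 to 0.26). Angpt1's nearest genes, Haghl, Thnsl2 and Myoz3, were 0.27 to 0.30 away, where Angpt1 itself varied by 0.46. Vegfc's were Nav3, Efr3b and the ephrin ligand Efnb2 (0.14 to 0.15), where Vegfc varied by 0.23.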

How the data were processed

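Alignment used Bowtie2 2.2.5 and mm10, and quantification RSEM 1.2.12, as named in the submitters' processing notes. The authors deposited, for each library, a file whose header names expected counts and FPKM. Their 4 deposited comparison tables hold log2 fold changes and p-values, of which only the calls are quoted. After rounding, expected counts went into edgeR 4.0.16 (R 4.3.3) with filterByExpr (minimum count 10; 3793 genes removed), TMM factors and the quasi-likelihood test, with a mean for each group estimated from all 12 libraries (residual degrees of freedom 8). P-values are two-sided and carry Benjamini-Hochberg adjustment over 13678 genes in each contrast, with a threshold of 0.05. CPM is TMM-scaled. FPKM lacks that scaling and was used for levels between genes and for ratios.

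Members, gene lists and tests were chosen with earlier results of these data known. From the pathway, VEGF-induced, semaphorin and hypoxia lists, the text names at most 4 members by smallest p of the Cre-negative injury contrast and at most 2 that passed against the list's median. Ptprb, Tie1 and Egfl7 are in both the pathway and the endothelial list, and Nrp2 is in the pathway and semaphorin lists. Alternatives were RLE size factors, no filter, DESeq2 1.42.0, only the 2 groups compared, a Y-linked covariate, a replicate block, leaving out each library, and library totals without TMM factors, the last chosen after seeing the data.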

Additional observations from a re-analysis of the deposited data

How the results depend on the processing

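Over the 10 genes, 5 contrasts and all alternatives, 885 of the recomputed values kept their direction and side of the threshold, 11 newly passed it and 14 no longer passed it. Another 30 changed sign, all of them below the threshold in both settings and at most 0.31 in size in the fit reported. Leaving out 1 library at a time gave 3 to 6 of the 10 genes called for injury in Cre-negative hearts. For injury, the shares of all genes called in these fits are not set beside the counts of the 10. The lowest count came without Cre-negative sham replicate 3, where Vegfa (-0.45, adjusted p = 0.0593) and Pgf (0.89, adjusted p = 0.0529) were lost. Vegfa was also lost without Cre-negative MI replicate 1 (adjusted p = 0.0699). In Cre-positive hearts the range was 3 to 8, with 3 without Cre-positive MI replicate 1 or 2, where Vegfa had adjusted p = 0.0782 and 0.0848 and Kdr was lost too. With library totals alone 4 and 5 of the 10 passed, Kdr being lost in Cre-positive hearts (-0.28, adjusted p = 0.266) and Nrp1 (0.46, adjusted p = 0.0341) and Angpt1 (0.89, adjusted p = 0.0326) passing there. Totals moved the median of all genes up by 0.25 in Cre-negative and 0.23 in Cre-positive hearts. The share of all genes called with totals is not set beside these counts, so they are not read as particular to the 10.

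For genotype after MI, the count over all genes was 1 with only the 2 groups compared, 167 with DESeq2 and 0 to 3 when a library was left out, with the 3 without Cre-positive sham replicate 2. For genotype after sham it was 7 in edgeR's fit to all groups, 0 with only the 2 groups compared, 36 with DESeq2 and 3 to 8 without 1 library, with the 3 without Cre-negative sham replicate 1. For the difference of the responses it was 2 without the filter, 33 with DESeq2 and 0 to 1 without 1 library, with the 1 without Cre-negative sham replicate 2. With the replicate number as a block 5 and 5 of the 10 genes were called in the 2 injury contrasts, and no call of the 10 changed. The share of all genes called in the block fit is not set beside these counts. Libraries with the same number did not deviate together (r from -0.15 to 0.29 over 18 pairs, 4 of them over 0.1, and 5 of 12 libraries nearest to their own number), so the numbers were not taken as pairs. Angpt2, with 20.01 reads in its lowest library, is the gene whose values depth limits most.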
